A study of Mus musculus with 2 samples.

Results

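The glucocorticoid receptor and genes known to respond to it were followed in the liver of apoE-KO mice as 8 genes: Nr3c1, Hsd11b1, Tsc22d3, Fkbp5, Zbtb16, Dusp1, Klf9 and Sgk, the older symbol of Sgk1. They were chosen by name, as all probes that are not controls and carry one of these symbols. The arrays held 16 such probes for 7 of the 8 genes, out of 41174 probes and 27962 gene names. No probe matched Zbtb16 by current symbol, older symbol or transcript, and this gene was not analysed here.

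The samples were male apoE-KO mice on the C57BL/6 background, which from 10 weeks of age received for 1 week either normal chow or that chow with Chol added to 1.25% (high-Chol diet). Both diets were given to apoE-KO mice, so that there was no group with an intact Apoe gene. There were 3 independent experiments for each diet, each read on its own one-colour Agilent array of the whole mouse genome, in which liver RNA as Cy3-labeled cRNA binds to probes of 60 bases. The number of mice behind an array and the hour at which livers were taken are not given in the sources used here, and p-values measure the spread between these arrays.

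Glucocorticoids are steroid hormones of the adrenal cortex, released in a daily rhythm and under stress. Hsd11b1 encodes the enzyme that makes the active hormone from its inactive 11-keto form inside liver cells, and Nr3c1 encodes the receptor, which is held by heat shock chaperones until hormone binds and then acts on chromatin at glucocorticoid response elements. Among its induced genes are Fkbp5, a co-chaperone that lowers the affinity of the receptor for hormone, Tsc22d3 (GILZ) and Dusp1, which restrain inflammatory signaling, the transcription factor Klf9, and the kinase gene Sgk. In the liver the receptor also raises genes of gluconeogenesis and amino acid breakdown.

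Slide 1 carried every normal chow array, at its positions 1, 2 and 3, together with 1 high-Chol array at position 4. Slide 2, read with another version of the extraction software, carried the other two high-Chol arrays at positions 2 and 3. Values below are log2 signals relative to the 75th percentile of the array, so that 0 is the brightness that 75% of its spots do not exceed. That percentile was 271 to 373 intensity units on slide 1 and 762 to 799 on slide 2. The normal chow array at position 1 had 50.5% of its spots well above background, and the others had 60.2 to 67.2%. Hepatocyte markers were well above background on all 6 arrays in 8 of 8 matched genes, and adipocyte markers in 0 of 2. Of 3 matched adrenal cortex markers, Cyp21a1 was well above background on all 6 arrays, Star on 2 and Cyp11a1 on none. Summed signals of the 10 macrophage and Kupffer cell markers lay between 112 and 127 times the 75th percentile with normal chow and between 255 and 299 times with the high-Chol diet, and those of the 8 hepatocyte markers were 1857 to 2170 and 1567 to 1672 times. Limma called 4 of the 9 macrophage markers tested higher, Cd5l (1.42), Marco (1.83), Cd68 (1.74) and Ptprc (1.46), beside 2.69% of all genes. The other tested ones, Emr1, Csf1r, Clec4f, Vsig4 and Cd14, were higher by 0.28 to 0.82 and not called. The sum follows its brightest marker, Cd5l, the most. Itgam of the macrophage list was not well above background on any array, and none of the hepatocyte markers was called. The summed signals of 4 stellate cell markers, 2.76 to 2.98 and 3.27 to 3.43 times, and of 4 endothelial markers, 7.43 to 9.37 and 9.55 to 10.3 times, were also higher on every high-Chol array. The markers behind these sums did not move together. Of the stellate markers, Col1a1 was called higher (1.04, adjusted p = 0.0257 by limma), with Des at 0.44, Reln at -0.01 and Lrat at -0.16. The endothelial markers, none called, differed by 0.94 (Cdh5), 0.27 (Stab2), 0.08 (Pecam1) and -0.29 (Kdr). In whole liver, fewer cells of a type and less RNA per cell cannot be told apart, and the part of these shifts in the results below was not tested.

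The sequences that the description turns on are a probe of Fkbp5 far from the other two, shown because its values differ from theirs, the brightest probe of Klf9, shown because its sign turns within slide 1, and the promoters of Sgk1 and Fkbp5, shown because these genes had the largest positive and negative differences between the diets among the members. Each probe has 60 bases and is written 5′ to 3′ as on the array. The Fkbp5 probe A_52_P481493 lies at chr17:26624510-26624569 of mm7 on the minus strand, 37402 bases from the nearer of the other two Fkbp5 probes, and the Klf9 probe A_52_P675996 lies at chr19:22862974-22863033 of mm7 on the plus strand. The array annotation does not name exons, so whether a probe is in coding sequence is not given here.
Fkbp5 A_52_P481493: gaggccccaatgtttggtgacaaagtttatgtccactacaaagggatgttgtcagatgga
Klf9 A_52_P675996: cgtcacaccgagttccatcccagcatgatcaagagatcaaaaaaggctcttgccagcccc

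RefSeq promoters (build GRCm38.p6, 250 bases before to 50 after a gene's start) were found for 6 of the members, 13 windows in all, and were searched on both strands. The full palindrome of the glucocorticoid response element, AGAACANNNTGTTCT, was in 3 of 32851 promoter windows of this length (0.00913%), and 1 of the 3 belonged to a start site of Sgk1 at chr10:21993640-21993939 on the plus strand. It is printed with the palindrome in capitals, which begin at base 62 of the window. Left in lower case in it are an E-box, CACGTG, and 1 half-site outside the palindrome, which overlap each other near the start of the window.
Sgk1 promoter: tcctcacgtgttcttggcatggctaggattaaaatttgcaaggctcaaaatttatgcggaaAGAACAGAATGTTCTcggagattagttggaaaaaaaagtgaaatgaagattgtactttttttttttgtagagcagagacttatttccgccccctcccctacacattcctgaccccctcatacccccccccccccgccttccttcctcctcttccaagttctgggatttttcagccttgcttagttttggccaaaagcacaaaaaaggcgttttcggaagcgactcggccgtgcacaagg
The half-site AGAACA, which is also part of the palindrome, was in 19.0% of all windows and in 4 of the 13 windows of the members, 3 of them of Sgk1 and 1 of Tsc22d3. The Fkbp5 promoter at chr17:28486100-28486399 on the minus strand held neither, but the E-box CACGTG that clock factors are known to bind, in capitals here and present in 7.15% of all windows.
Fkbp5 promoter: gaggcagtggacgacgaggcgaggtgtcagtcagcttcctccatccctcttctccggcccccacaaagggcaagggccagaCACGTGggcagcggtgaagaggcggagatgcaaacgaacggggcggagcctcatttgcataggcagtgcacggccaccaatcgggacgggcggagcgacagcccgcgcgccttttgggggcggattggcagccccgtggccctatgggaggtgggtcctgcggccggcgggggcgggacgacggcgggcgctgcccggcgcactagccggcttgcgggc
The cAMP response element TGACGTCA was in 1.79% of all windows and, among the members, in that of Dusp1, which held the E-box as well. A match is a description of the letters in the window and not a site of binding.

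None of the 7 member genes passed limma at an adjusted p under 0.05, against 2.92% of the 16730 genes tested, and none passed with slide as a block, against 0.0658%. At an unadjusted p under 0.05 there were 2, Fkbp5 lower and Sgk higher on the high-Chol diet, against 21.2% of all genes, and the methods' t-test gave 0 of 7 unadjusted, against 16.7% of all genes, and 0 of 7 after adjustment, against 0.0299%, a share at which no call among 7 genes says nothing about them. Of the 7 genes, 5 had a lower and 2 a higher mean on the high-Chol diet, and their median log2 difference was -0.27, beside -0.02 for all genes. In 6 members with a value on all 6 arrays, the diets did not overlap in 1, Fkbp5, against 25.8% of all genes with 6 values. The counts of members called were 0 in every alternative processing that was tested. Over all genes the calls ranged from 0 of 16730 with a normexp background to 2316 higher and 761 lower of 16686. The latter came with the high-Chol array of slide 1 left out. Elsewhere so few genes were called that 0 among 7 says little about the members.

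**Figure D1:**
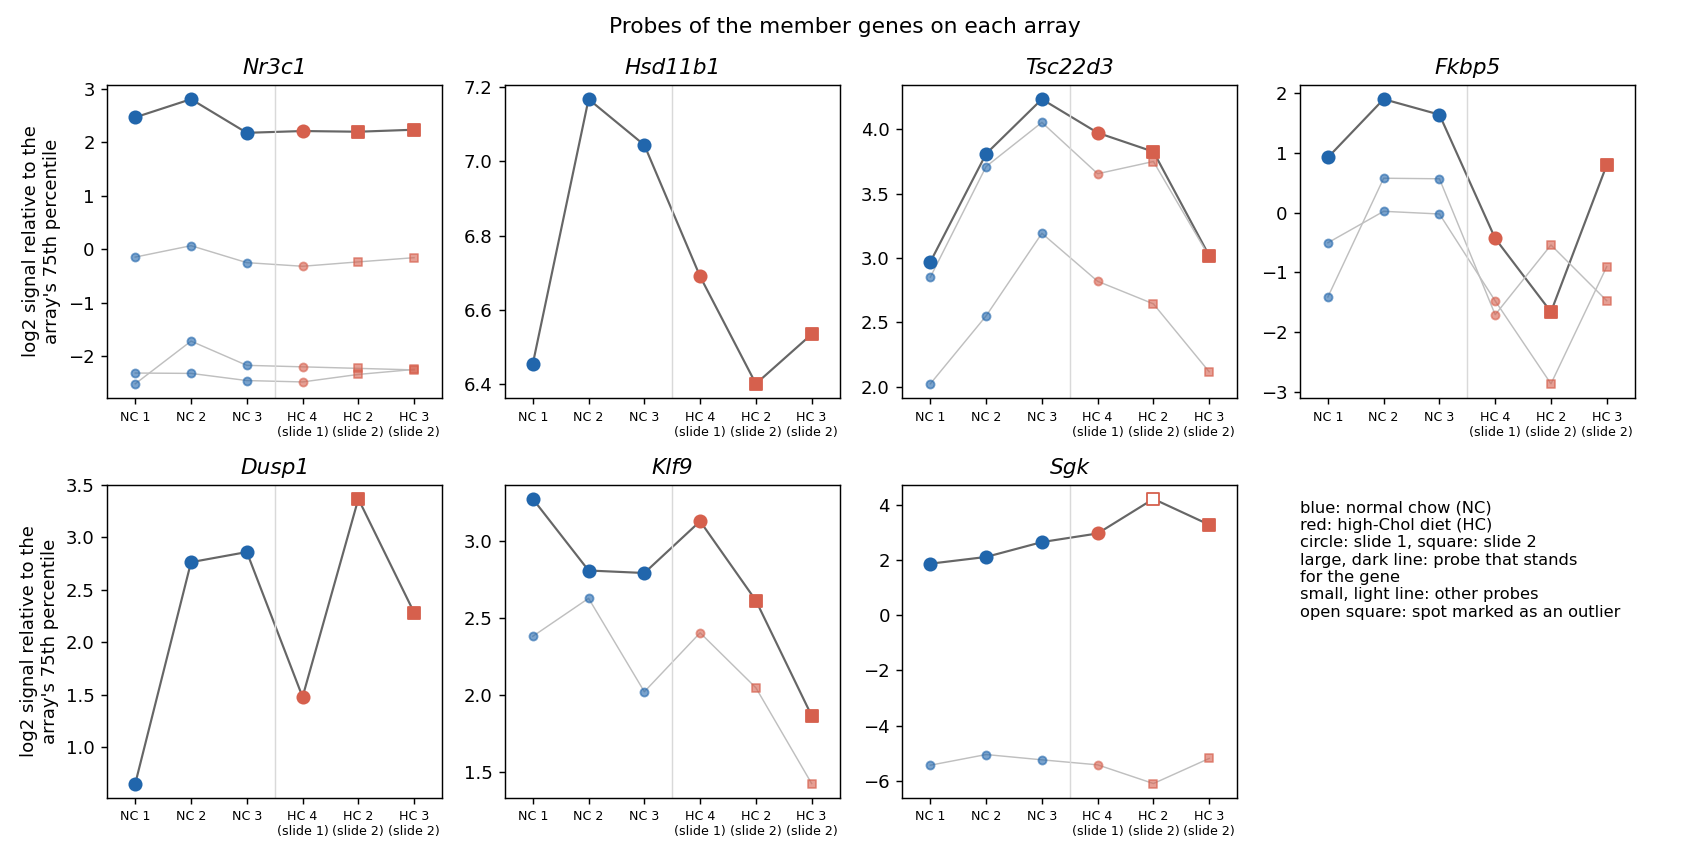
The log2 signal relative to the array's 75th percentile (vertical axis) of all 16 member probes on each array (horizontal axis), with normal chow (NC) in blue, the high-Chol diet (HC) in red, circles for slide 1, squares for slide 2 and an open square for the outlier spot of Sgk; lines join the values of 1 probe, and the arrays of a diet have no order. The brightest Fkbp5 probe lies between 0.93 and 1.90 on normal chow and between -1.66 and 0.80 on the high-Chol diet, while the other members except Sgk overlap between the diets.

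Nr3c1, the receptor, did not differ between the diets beyond the spread of the arrays. Its brightest probe had log2 signals of 2.47, 2.81 and 2.18 on normal chow. The high-Chol array on slide 1 gave 2.21, and those on slide 2 gave 2.20 and 2.24. The high-Chol arrays lay within 0.04 of each other and inside the normal chow range, which spanned 0.63. The mean was 2.49 ± 0.32 (SD, n = 3) on normal chow against 2.22 ± 0.02 (SD, n = 3) under the high-Chol diet, and the log2 difference was -0.27 with a 95% confidence interval of -0.72 to 0.18 (SE 0.19, adjusted p = 0.422 by limma). The other 3 probes differed by -0.13, -0.09 and 0.01, with adjusted p between 0.659 and 0.982 when each probe was tested by itself. These probes were also well above background on all 6 arrays. On the linear scale the interval of the brightest probe runs from 0.608 to 1.13 times the normal chow level.

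The genes whose signals across the 6 arrays were most like that of Nr3c1, among 14043 other genes well above background on every array, were 2310001H17Rik, 4930523C07Rik and Dars, with Pearson's r of 0.984, 0.979 and 0.977. These r values describe 6 arrays that share slides and diets. None of these genes was called by limma, and their log2 differences were -0.29, -0.34 and -0.05.

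Hsd11b1, which regenerates active glucocorticoid and was among the lipid metabolism genes that the study selected on these arrays, had signals of 6.45, 7.17 and 7.04 on normal chow against 6.69, 6.40 and 6.53 under the high-Chol diet. The normal chow array at position 1 was close to the high-Chol arrays, and the other two normal chow arrays were above all of them. With a log2 difference of -0.35 (SE 0.22, 95% confidence interval -0.87 to 0.17), the adjusted p was 0.383 (limma). The difference was -0.56 without the normal chow array at position 1, -0.21 without that at position 2 and -0.04 with a normexp background. It was -0.58 under median scaling and -0.59 with the authors' values. Within slide 1 it was -0.20. Because the gene was selected by the study on these samples, its direction is not independent evidence.

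Fkbp5 had the largest difference among the members. Its brightest probe gave 0.93, 1.90 and 1.64 on normal chow. It gave -0.43 at the high-Chol position of slide 1, and -1.66 and 0.80 at positions 2 and 3 of slide 2. All high-Chol arrays were below all normal chow arrays, but the gap between the nearest was small, 0.80 against 0.93, and the high-Chol values spanned 2.46. Between the means of 1.49 ± 0.51 (SD, n = 3) and -0.43 ± 1.23 (SD, n = 3) the log2 difference was -1.92 (SE 0.59, 95% confidence interval -3.32 to -0.52), or 0.264 of the normal chow level, with an unadjusted p of 0.0141 and an adjusted p of 0.152 from limma. An exact two-sided permutation test gave p = 0.1, the smallest that 3 arrays against 3 allow. The high-Chol array of slide 1, set against the normal chow arrays of the same slide, gave the same difference, -1.92, and limma fitted with the slide as a block gave an adjusted p of 0.605.

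The other Fkbp5 probes had the same sign. The probe A_52_P337899 gave -0.50, 0.02 and -0.02 on normal chow against -1.48, -2.86 and -0.90 under the high-Chol diet, or -1.58 as a log2 difference (SE 0.47, adjusted p = 0.145 by limma over all probes). Its diets did not overlap. The distant probe printed above gave -1.41, 0.58 and 0.57 on normal chow against -1.71, -0.54 and -1.47 under the high-Chol diet, or -1.15 as a log2 difference (SE 0.57, adjusted p = 0.301 by limma). Here the diets overlapped, since the normal chow array at position 1 was lower than position 2 of slide 2. That high-Chol array was the lowest of its diet on the other two probes and the highest on this one.

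With the mean of the 3 probes the Fkbp5 difference was -1.55 (adjusted p = 0.106 from limma). With a normexp background it was -1.04 (adjusted p = 1.00), in a fit that called 0 of 16730 genes. Leaving out 1 array at a time gave -2.54 to -1.31, and adjusted p between 0.0678 and 0.371. The lowest p came with position 3 of slide 2 left out. On that array the clock output gene Dbp stood at 5.64, against 0.86 on each of the other two high-Chol arrays and 6.49 to 6.80 on normal chow. The part of this rhythm in the Fkbp5 value of the array was not tested.

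The genes most like Fkbp5 across the 6 arrays, among the same 14043 genes, were 1200006F02Rik, Omd and Kpna1, with Pearson's r of 0.996, 0.994 and 0.992. Omd encodes the extracellular matrix protein osteomodulin, and Kpna1 an importin that carries proteins into the nucleus. Their log2 differences were -0.91, -0.98 and -0.21, and none was called.

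Tsc22d3, the anti-inflammatory leucine zipper GILZ, had nearly the same mean on both diets. Its brightest probe gave 2.97, 3.81 and 4.23 on normal chow against 3.97, 3.83 and 3.02 under the high-Chol diet, with a log2 difference of -0.07 and a 95% confidence interval of -0.97 to 0.83 (SE 0.38, adjusted p = 0.929 by limma). Values within a diet spread over 1.26 on normal chow against 0.95 under the high-Chol diet, each far wider than the difference between the diets. The other probes differed by -0.06 and -0.07. All 3 probes had their lowest normal chow value at position 1 and their lowest high-Chol value at position 3 of slide 2. The sign turned with a normexp background, quantile normalization and slide as a block (0.20, 0.09 and 0.30).

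Dusp1, a phosphatase that switches off MAP kinases, had signals of 0.65, 2.76 and 2.86 on normal chow against 1.48, 3.37 and 2.28 under the high-Chol diet. It had the widest spread on normal chow among the brightest probes of the members, 2.21 on the log2 scale, and the diets overlapped. High-Chol minus normal chow came to 0.28 in log2, with a 95% confidence interval of -1.35 to 1.92 (SE 0.69, adjusted p = 0.827 by limma). Within slide 1 it was -0.61, and with the first normal chow position left out it was -0.44, so that it had no settled direction.

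Klf9, a Krüppel-like transcription factor, gave 3.27, 2.81 and 2.79 on normal chow against 3.13, 2.61 and 1.87 under the high-Chol diet with the probe printed above. The high-Chol array of slide 1 lay inside the normal chow range, and both arrays of slide 2 lay below it. Over both slides the log2 difference was -0.42, with a 95% confidence interval of -1.20 to 0.35 (SE 0.33, adjusted p = 0.460 by limma), and within slide 1 it was 0.17. The second probe differed by -0.38 over both slides and by 0.06 within slide 1. Diet and slide cannot be told apart for the part of the difference that the arrays of slide 2 carry.

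Sgk, the serum- and glucocorticoid-regulated kinase, had the largest positive difference among the members. The 3 normal chow signals were 1.87, 2.11 and 2.65. High-Chol signals were 2.96 on slide 1 and 3.28 at position 3 of slide 2. The spot on the other high-Chol array gave 4.21 but was marked as an outlier by the extraction software and was left out, so that 2 high-Chol values remained. All of these high-Chol values were above all normal chow values. From 2.21 ± 0.40 (SD, n = 3) to 3.12 ± 0.22 (SD, n = 2), the difference was 0.91 in log2 (SE 0.28, 95% confidence interval 0.24 to 1.58), or 1.88-fold, with an unadjusted p of 0.0161 and an adjusted p of 0.160 by limma. An exact two-sided permutation test of these 5 values gave p = 0.2. With the marked spot kept it was 1.28 (SE 0.36, adjusted p = 0.127 by limma), and within slide 1 it was 0.75 (adjusted p = 0.615 with slide as a block). A second Sgk probe, A_52_P352246, at chr10:21631585-21631644 of mm7, was not well above background on any array, while the probe with signal lies at chr10:21732425-21732484.

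**Figure D2:**
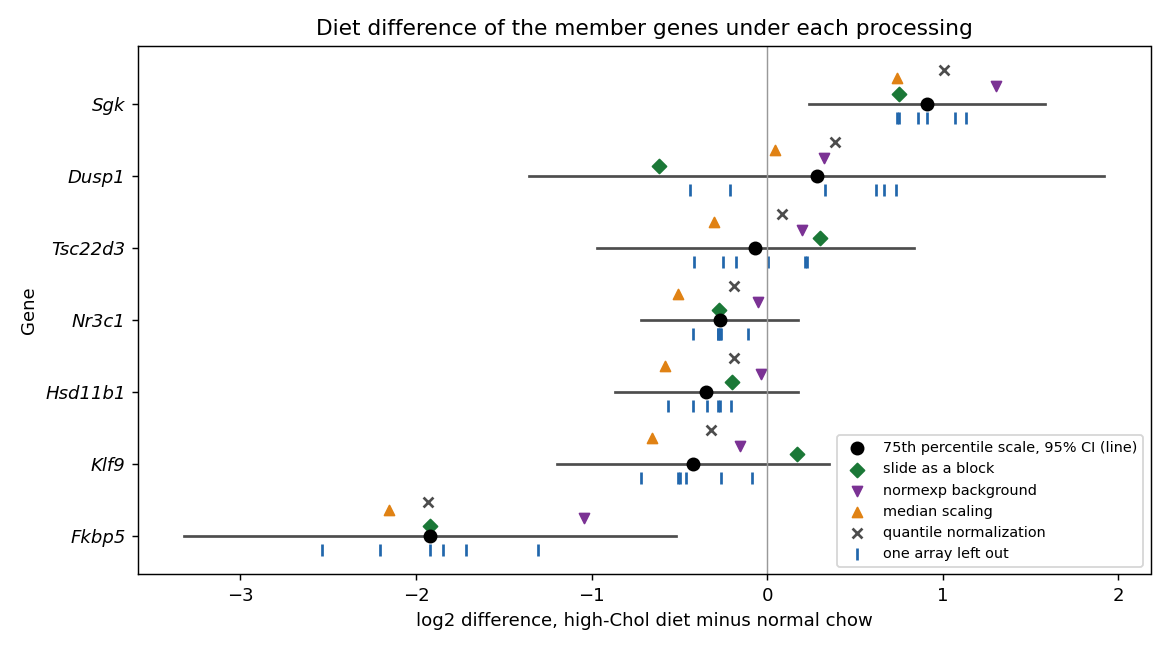
The log2 difference of each member gene, high-Chol diet minus normal chow (horizontal axis), with the 95% confidence interval of limma as a line, the values under other processing as coloured marks and those with 1 array left out as ticks. Fkbp5 stays below 0 and Sgk above 0 under each processing shown, whereas Dusp1, Tsc22d3 and Klf9 cross 0.

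The genes downstream and around the receptor were described with 6 gene lists. Of 22 glucocorticoid-induced liver genes other than the members, limma called 1 higher and 0 lower (2.69% and 0.227% of all genes), and 4 of them were higher and another 4 lower by an unadjusted p under 0.05 (12.3% and 8.83% of all genes). The median log2 difference of the list was -0.27, beside -0.02 for all genes, and 14 of the 22 genes were lower, beside 52.2% of all genes. This median was 0.04 with a normexp background, -0.07 with quantile normalization, -0.49 under median scaling and -0.51 with the authors' values. It was -0.47 and -0.13 when normal chow position 1 or 2 was left out. Under median scaling, which put the median of all genes at -0.26, Lpin1 and Pik3r1 were called lower (adjusted p = 0.0478 and 0.0455 by limma). The gene that rose was Lcn2, an acute-phase iron carrier protein of hepatocytes and neutrophils that inflammatory cytokines induce as well, from -2.01 ± 0.64 (SD, n = 3) to 2.02 ± 0.34 (SD, n = 3). Its values were -1.51, -2.73 and -1.80 on normal chow against 1.66, 2.07 and 2.33 under the high-Chol diet, 4.03 apart in log2 (SE 0.34, adjusted p = 0.0053 by limma). It stayed called without any 1 of the 6 arrays, at 3.67 to 4.29, but not with slide as a block (3.67, adjusted p = 0.0830). With a normexp background, where 0 of 16730 genes were called, it was 2.61.

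Lpin1, a phosphatidate phosphatase gene that glucocorticoids induce and that the study selected on these arrays, had the largest negative difference of this list, which is therefore not independent evidence of its direction. Beyond the arrays, the study reported less of the α transcript by real-time RT-PCR and less of the protein, while the β transcript did not reach significance. The array signals of Lpin1 were 3.92, 6.07 and 6.28 on normal chow against 3.14, 3.15 and 1.34 under the high-Chol diet. The diets did not overlap, and the normal chow array at position 1 was the nearest to the high-Chol arrays. Its difference was -2.88 in log2 (SE 0.74, adjusted p = 0.102 by limma), and without that normal chow array it was -3.64 (adjusted p = 0.0484). With the high-Chol array of slide 1 left out, the adjusted p was 0.0482, with diet and slide then the same split of the arrays.

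Per1, a clock gene that the receptor induces directly, gave 0.95, 1.70 and 2.20 on normal chow against 0.34, 0.88 and 0.73 under the high-Chol diet, -0.97 in log2 (SE 0.33, adjusted p = 0.173 by limma) and without overlap. Tat, tyrosine aminotransferase and a classic hormone-induced liver enzyme, gave 7.54, 8.28 and 8.10 against 7.68, 7.52 and 7.18, -0.52 in log2 (adjusted p = 0.266) and with overlap. Pck1, the gluconeogenic phosphoenolpyruvate carboxykinase, gave 7.72, 8.23 and 7.88 against 7.55, 7.66 and 7.58, -0.35 in log2 (adjusted p = 0.293) and without overlap. None of these passed the test.

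The other genes of the list at an unadjusted p under 0.05 were outside the rule for named genes and are given after their values were seen. G6pc, glucose-6-phosphatase of gluconeogenesis, ran opposite to Pck1, with 5.04, 4.79 and 5.35 on normal chow against 6.64, 6.52 and 5.59 under the high-Chol diet, 1.19 in log2 (SE 0.31, adjusted p = 0.104 by limma) and without overlap. Pdk4, a kinase that restrains pyruvate oxidation, differed by 1.18 (adjusted p = 0.152) without overlap, and Cdkn1a, a cell cycle inhibitor, by 1.60 (adjusted p = 0.198) with overlap. In these 3 genes the array at position 3 of slide 2 was the lowest of the high-Chol arrays, and with it left out G6pc and Cdkn1a were called higher, at 1.52 (adjusted p = 0.0478) and 2.30 (adjusted p = 0.0421). Lower were Pik3r1, a regulatory subunit of phosphoinositide kinase, by -1.07 (adjusted p = 0.104), and Sds, serine dehydratase of amino acid breakdown, by -0.48 (adjusted p = 0.223), both without overlap. None of the 5 passed the test over all arrays.

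**Figure D3:**
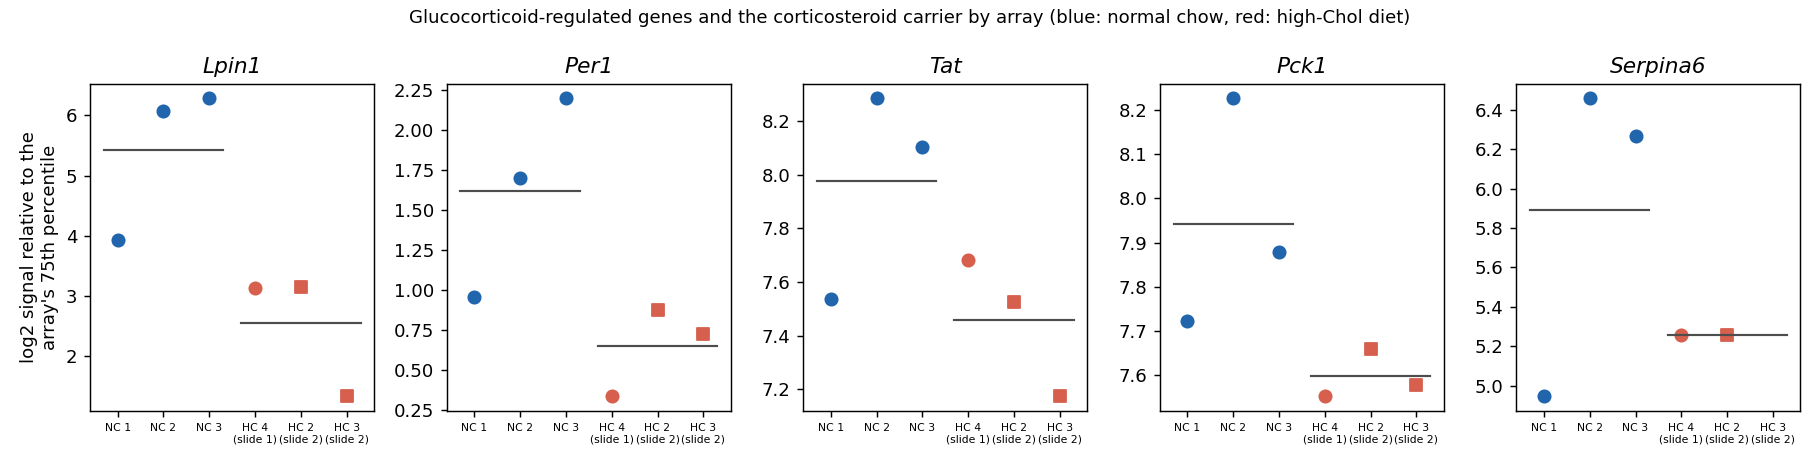
The log2 signal relative to the array's 75th percentile (vertical axis) of Lpin1, Per1, Tat, Pck1 and Serpina6 on each array (horizontal axis), with normal chow (NC) in blue, the high-Chol diet (HC) in red, squares for slide 2 and lines at the means of a diet; the outlier spot of Serpina6 is not drawn. The normal chow array at position 1 is the lowest of its diet in each of the 5 genes, at 3.92 for Lpin1 against 6.07 and 6.28 on the others.

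The normal chow array at position 1 was lowest of its diet in 4 of the 6 members with 6 values, in 16 of the 20 such genes of the glucocorticoid-induced list (80.0%) and in 10 of the 11 immediate early genes, beside 42.9% of all genes. It was lowest in 6 of 8 transport and metabolism genes and 7 of 11 clock genes, but in 7 of 15 relatives (46.7%) and in 6 of 20 chaperones and co-regulators, of which 11 were lowest at position 3. The same array had the lowest share of spots well above background. These counts are a description of 1 array, and the part of signal quality in them was not tested.

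Of the 20 chaperones and co-regulators of the receptor, limma called none, and by an unadjusted p under 0.05 there were 0 higher and 2 lower genes (12.3% and 8.83% of all genes). Their median log2 difference was -0.18, with 16 of the 20 lower, beside 52.2% of all genes, but it was -0.41 under median scaling, -0.42 with the authors' values, -0.05 with a normexp background and -0.10 when normal chow position 2 was left out. Dnaja1, a DnaJ co-chaperone, had the largest negative difference, -0.56, with 5.15, 5.71 and 5.81 on normal chow against 4.84, 5.03 and 5.13 under the high-Chol diet (adjusted p = 0.206 by limma). Nrip1, a co-repressor of nuclear receptors, had the largest positive difference, 0.39 (adjusted p = 0.273).

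In glucocorticoid transport and metabolism, 10 of 11 genes were tested and none was called, with none at an unadjusted p under 0.05 (21.2% of all genes). With the high-Chol array of slide 1 left out, H6pd, which supplies the cofactor of the Hsd11b1 enzyme, was called lower (-0.85, adjusted p = 0.0348 by limma). Diet and slide were then the same split of the arrays, and 761 of 16686 genes were called lower. Within slide 1 the H6pd difference was -0.12. The list's median log2 difference was -0.08, with 8 of the 10 lower, beside 52.2% of all genes, and it was -0.32 under median scaling and -0.20 or -0.21 when normal chow position 1 or the high-Chol array of slide 1 was left out. Abcb1a, higher by 0.41, was well above background on 1 normal chow array alone and entered the test through its high-Chol values. Without it 8 of 9 genes were lower and the median was -0.09. Serpina6, which encodes the corticosteroid carrier of plasma made by the liver, gave 4.95, 6.46 and 6.26 on normal chow and 5.26 and 5.26 on 2 high-Chol arrays, the spot of the third being marked as an outlier. This gave -0.63 in log2 (SE 0.46, adjusted p = 0.439 by limma), the most negative of the list, with -1.10 (adjusted p = 0.0820) when normal chow position 1 was left out and -0.35 (adjusted p = 0.727) when position 2 was. Cyp3a11, a P450 that hydroxylates steroids, had the largest positive difference, 0.47 (adjusted p = 0.345).

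Among close relatives of the members, 15 of 16 genes were tested and 1 was called in each direction (2.69% higher and 0.227% lower over all genes). By an unadjusted p under 0.05, 3 were higher (Dusp2, Dusp8 and Dusp10) and 1 was lower, but Dusp8 was well above background on 1 normal chow array alone and entered the test through its high-Chol values. Without it 2 were higher and 1 lower, beside 12.3% and 8.83% of all genes. The median log2 difference of 0.12 had no settled sign, with 0.08 without Dusp8, -0.01 under the slide block, -0.14 with a normexp background, -0.11 under median scaling and -0.07 when normal chow position 3 was left out. Dusp2, a MAP kinase phosphatase of immune cells, rose from -2.44, -1.98 and -2.14 on normal chow to -0.65, 0.40 and -0.51 on the high-Chol diet, by 1.93 in log2 (SE 0.30, adjusted p = 0.0229 by limma). Klf13, another Krüppel-like factor, fell from 1.91, 2.25 and 2.37 to 1.12, 1.03 and 1.27, a difference of -1.03 in log2 (SE 0.18, adjusted p = 0.0312 by limma). Its second probe gave -1.45, and with the mean of its probes Klf13 was not called (-1.24, adjusted p = 0.0807). With slide as a block neither was called, at 1.54 (adjusted p = 0.278) and -1.05 (adjusted p = 0.246). With 1 array left out at a time the differences were 1.61 to 2.13 for Dusp2 and -1.16 to -0.94 for Klf13. Calls over all genes also fell from 450 higher and 38 lower when any array but the high-Chol array of slide 1 was left out. They were then 42 to 239 and 0 to 23. Dusp2 was no longer called when any normal chow array or position 3 of slide 2 was left out, with adjusted p up to 0.0938. Klf13 was no longer called when normal chow position 2 or 3 or either array of slide 2 was left out, with adjusted p up to 0.147. With a normexp background the differences were 0.68 for Dusp2 and -0.65 for Klf13. That fit called 0 of 16730 genes, so the lack of a call says nothing about either gene. Without a filter on dim probes neither was called (adjusted p of 0.11 and 0.152), beside 26 of 27961 genes higher and 0 lower. The summed macrophage markers were higher on the same arrays as Dusp2, as given above, and their part in its value was not tested.

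The 11 immediate early genes, which stress and cytokines induce within minutes a class that Dusp1 shares, had a median log2 difference of 0.61, with 8 higher and 3 lower. By an unadjusted p under 0.05, 4 were higher (Atf3, Fos, Ier3 and Jun), beside 12.3% of all genes, but Fos and Ier3 were well above background on 2 normal chow arrays each and entered the test through their high-Chol values. Over the 9 genes with signal on every array, 6 were higher and 3 lower, 2 were higher at that p and the median was 0.34. Over all 11 it was 0.35 when normal chow position 1 was left out, 0.40 when either position 4 of slide 1 or position 2 of slide 2 was, 0.37 under median scaling, 0.23 with the authors' values and 0.03 with a normexp background. Limma called 1 higher and 0 lower (2.69% and 0.227% of all genes). The called gene was Atf3, a stress-induced transcription factor, which rose from -2.94, -2.95 and -2.03 to -0.96, -0.13 and -0.39, by 2.15 in log2 (SE 0.32, adjusted p = 0.0207). With slide as a block the Atf3 difference was 1.68 (adjusted p = 0.254), and without a filter on dim probes its adjusted p was 0.106. With a normexp background, where 0 of 16730 genes were called, it was 0.75. Atf3 was no longer called when normal chow position 1 or 2 or either array of slide 2 was left out, with adjusted p up to 0.111. With the high-Chol array of slide 1 left out, diet and slide were the same split of the arrays. Of 16686 genes, 2316 were then called higher and 761 lower. In this setting 3 genes of the list were called higher by limma, Atf3 (adjusted p = 0.0063), Fosb (adjusted p = 0.0061) and Ier3 (adjusted p = 0.0313). Within slide 1 the Fosb difference was -0.29. Myc had the most negative difference, -1.12 (adjusted p = 0.402), with 2.47 on the normal chow array at position 2 against -0.58 and -0.10 on the others.

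Of the 12 clock genes, which follow the daily rhythm and which glucocorticoids help to set, 11 were tested and none was called, and an unadjusted p under 0.05 was reached by 2 that were higher and 6 that were lower (12.3% and 8.83% of all genes), with a median log2 difference of -0.97. Per3 was well above background on 2 high-Chol arrays and entered the test through its normal chow values. Over the 10 genes without it the counts at that p stayed 2 and 6, and the median was -0.97. Dbp had the most negative difference, -4.17 (SE 1.21, adjusted p = 0.134 by limma), and Arntl, which cycles in opposite phase, the most positive, 2.45 (adjusted p = 0.195). Arntl was 1.19 and 1.17 on the same high-Chol arrays where Dbp was 0.86, and -1.51 on the remaining high-Chol array, inside the normal chow range of -3.67 to -1.12. Without that array Dbp and Tef were called lower, at -5.76 (adjusted p = 0.0009) and -2.54 (adjusted p = 0.0270). Nr1d2 was called lower by limma under median scaling (adjusted p = 0.0245) and with the high-Chol array of slide 1 left out (adjusted p = 0.0429). In the latter setting diet and slide were the same split of the arrays, and 761 of 16686 genes were called lower. Tested by itself, 1 Tef probe was called. Per1 counts in both this and the glucocorticoid-induced list, Klf15 in that list and among the relatives, and Fkbp4 among the chaperones and the relatives.

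**Figure D4:**
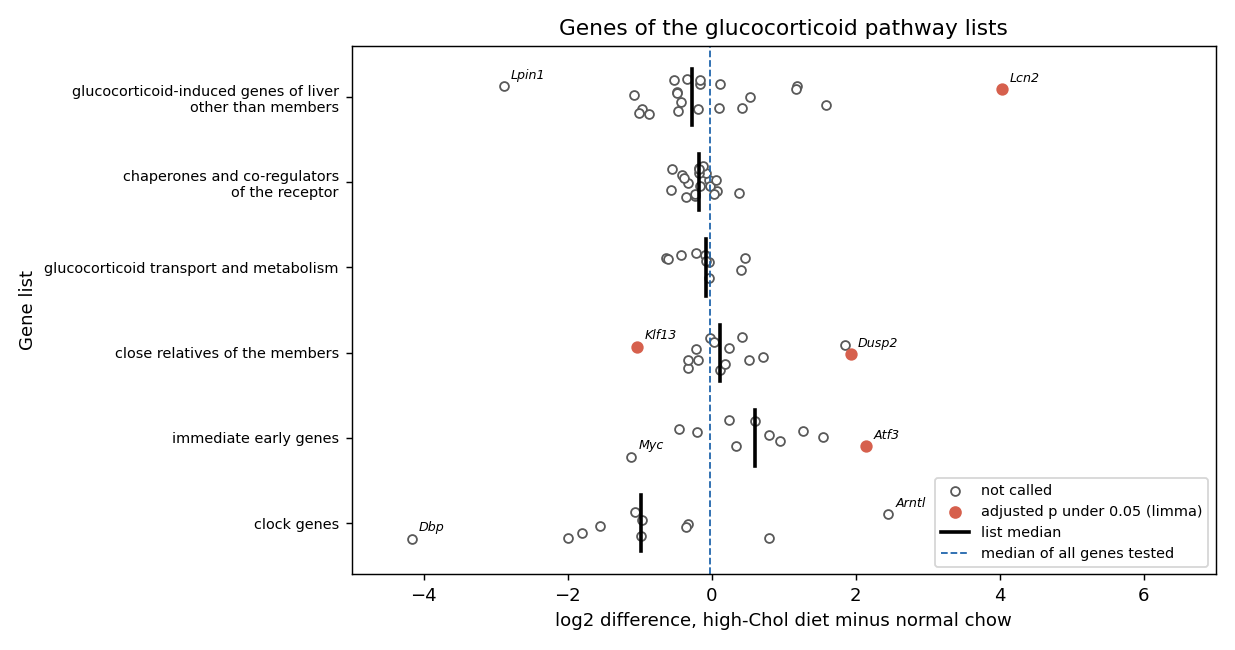
The log2 difference, high-Chol diet minus normal chow (horizontal axis), of every tested gene in the 6 lists (rows), with genes called by limma filled in red, the median of a list as a black bar and the median of all 16730 genes as a dashed line. Lcn2, Dusp2, Atf3 and Klf13 are the 4 genes called, and the clock genes have the most negative median, -0.97.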

How the data were processed

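Liver RNA of apoE-KO mice was read on 6 one-colour arrays, 3 per diet. The authors deposited the spot intensity of each array, background-subtracted by Agilent Feature Extraction (9.1 per the labels, 9.5.1.1 on slide 1 and 9.1.1.1 on slide 2 per the file headers). The authors also deposited 1 log2 value per probe and diet, normalized in Gene Spring GX with settings not given in the sources used here. The diet differences of these log2 values run the same way as those of the scanner values, with a slope of 1.00 and an offset of -0.24. The columns have medians of -0.0019 and -0.27, and their centring stays unknown.

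Signals were put on the log2 scale relative to each array's 75th percentile over spots that are not controls. Control and outlier spots were left out, and spots of a probe were averaged. Probes had to be well above background throughout 1 diet, and a gene was read from its brightest probe. The diets were fitted in limma 3.58.1 (R 4.3.3; lmFit, eBayes) over all 16730 genes with Benjamini-Hochberg adjustment, or over all probes for single probes. On data simulated from 16438 genes of this comparison, 24 of 89 genes with 2-fold and 95 of 111 with 4-fold changes were called, with 6 false calls. The simulated noise was independent between arrays and held no slide effect, so these counts do not cover the uneven split of diets over slides. Arrays give no depth, and their number limits the precision.

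Members, lists and tests were chosen with earlier results of these data known. Of 89 list genes, 88 were on the arrays by current or older symbol (GRCm38.p6 table). Named are all members, Lpin1, Per1, Tat, Pck1 and Serpina6, the called genes of a list (at most 4 per direction), its largest difference in each direction, and the 3 genes best correlated with Nr3c1 and with the member that differed most. Alternatives were normexp background (offset 50), median scaling, quantile normalization, other filters on dim probes, single or averaged probes, outlier spots kept, slide as a block, arrays left out, a trended robust prior, the methods' t-test and the authors' values.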

Additional observations from a re-analysis of the deposited data

How the results depend on the processing

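No member gene was called under any alternative, but in most of them few genes were called at all, as given below. Fkbp5, Sgk and Hsd11b1 kept their direction in every alternative. The Tsc22d3 difference turned to 0.20 with a normexp background, 0.087 under quantile normalization and 0.30 when the slide was a block, and the Dusp1 and Klf9 differences turned to -0.61 and 0.17 under the same block, in which only the high-Chol array of slide 1 carries the difference. The Nr3c1 probe A_51_P355693 by itself gave 0.0075, and the authors' deposited values gave -0.51 for the brightest Nr3c1 probe. Leaving out 1 array at a time gave -0.42 to 0.23 for Tsc22d3, -0.44 to 0.73 for Dusp1, -0.72 to -0.09 for Klf9, -0.42 to -0.11 for Nr3c1 and -0.56 to -0.21 for Hsd11b1. The causes were not tested. The median difference of all genes was -0.02, with -0.11 under the normexp background and -0.26 under median scaling. The number of genes called among all was 450 higher and 38 lower, 0 and 0 with a normexp background, 329 and 73 with median scaling, 26 and 0 without a filter on dim probes, and 11 in either direction under the slide block. Leaving out the high-Chol array of slide 1, which puts the diets on separate slides, gave 2316 and 761, and leaving out any other array gave 42 to 239 and 0 to 23. No paired analysis was possible because the labels do not tie a replicate number to any of the 3 arrays of a diet.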
